A study of Mus musculus with 6 samples.

Results

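Smooth muscle contractile genes encode the machinery by which the myometrium, the muscle wall of the uterus, shortens. The 10 genes described here were Acta2, Actg2, Myh11, Tagln, Cnn1, Myl9, Tpm1, Tpm2, Des and Smtn. All 10 were present among the 30828 genes of the spatial tables and among the 24077 genes of the single-cell table. The list was chosen on the levels of these genes by section and spot cluster and by cell type and library, with earlier results of the data known. The levels across spot clusters and cell types are therefore given as a description without a test. Tests between the CO and DES sections are given, but for a list chosen with section levels known. Throughout, Des is the desmin gene and DES is diethylstilbestrol.

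The uteri came from 12-month-old CD-1 mice that had received corn oil (CO, control) or DES, a synthetic estrogen, at 1 mg/kg/day by subcutaneous injection on neonatal days 1 to 5. All CO mice were collected in estrus, since DES-exposed adults remain in estrus. Spatial transcriptomics (Visium, 3′ UMI counting on a slide) covered 2 CO sections (CO A and CO B) and 2 DES sections (DES A and DES B), from 2 mice per group. Single-cell RNA sequencing covered 1 CO library, from 2 pooled mice, and 1 DES library, from 4 pooled mice. Before the mice were selected, sections were evaluated for luminal and glandular epithelium in both groups and for uterine adenocarcinoma in DES. All blocks were cored around chosen areas so that they fit the slide. The amount of muscle in a section thus also reflects where the core was taken. The paper describes cancer regions in DES tissue on the slide, and their part in the levels given here was not tested. A spot covers several cells of more than one type.

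Smooth muscle contracts when myosin filaments pull on actin filaments that are anchored to dense bodies and to plaques in the cell membrane. Calcium acts through calmodulin and myosin light chain kinase, which phosphorylates the regulatory light chain of myosin. Tropomyosins, calponin and caldesmon bind along the actin filament, and desmin filaments link the dense bodies to each other. Many of these genes are controlled by serum response factor (SRF) and its partner myocardin through a DNA element called the CArG box.

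Because the members varied together in the sections, their promoters were searched for the CArG box. RefSeq promoters (GRCm38.p6, 250 bases before to 50 bases after the start of a gene) were matched for 7 members, namely Acta2, Cnn1, Myl9, Tpm1, Tpm2, Des and Smtn. A box was counted only if complete, as CC, then 6 bases that are each A or T, then GG. Boxes that depart from this form or lie outside the 300 bases were not searched for. A promoter without a match may thus still hold a CArG element. A complete CArG box on either strand (its palindromic form reads alike on both) was found in 1 of these 7, the Myl9 promoter, and in 1.63% of all 32841 promoters of the same length. It began 161 bases before the RefSeq start of Myl9, which lies inside the gene as GENCODE M21 places it (positions of genes in the text are from GENCODE). The 250 bases before the RefSeq start (GRCm38.p6, chr2:156775214-156775463, plus strand) are shown 5′ to 3′ because they hold the only match, with the box in capitals.
Myl9: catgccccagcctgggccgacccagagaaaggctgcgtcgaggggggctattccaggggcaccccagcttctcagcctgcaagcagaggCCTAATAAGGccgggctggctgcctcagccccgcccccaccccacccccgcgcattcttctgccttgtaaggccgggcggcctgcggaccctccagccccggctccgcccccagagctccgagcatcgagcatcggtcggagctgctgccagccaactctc

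The sections held 1357 to 1834 spots and 9117099 to 12506177 UMIs each, with a median of 4116 to 6656 UMIs per spot. The cell libraries held 32387 CO cells and 16312 DES cells, and 180 cell barcodes occurred in both libraries. The study describes a large tissue fold in CO B and poorer cluster identification in DES B, and both sections are used here. Levels are UMIs per 1000000 UMIs (CPM). A UMI count at the 3′ end marks a molecule and does not scale with transcript length.

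In whole sections the 10 genes made up 2.40% (CO A) and 2.61% (CO B) of all UMIs, against 0.624% (DES A) and 0.701% (DES B). Both DES sections lay far below both CO sections. By gene, 9 of the 10 passed the test as lower in DES, with log2 fold changes from -3.43 to -1.85, and none passed as higher. Among all 14098 genes tested, 2.63% were lower and 2.67% were higher. The median log2 fold change was -1.96 over the 10 genes and -0.01 over all genes tested (edgeR quasi-likelihood test, Benjamini-Hochberg adjustment over all genes). Because the list was chosen with section levels known, comparisons of the 10 with all genes are a description. They are not independent evidence, here or in the regions described later. With 2 sections per group, an exact permutation test cannot give a p below 0.333, so the calls rest on the spread that edgeR shares across genes. Groups that do not overlap, as given for single genes in what follows, reach only this permutation p of 0.333. The share of all genes whose groups do not overlap was not computed. In bulk sums such as these, fewer muscle cells and less muscle RNA per cell cannot be told apart.

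Of the 10 genes Actg2 differed most between the groups. Actg2 (chromosome 6, 83512905 to 83536265) encodes γ smooth muscle actin, the isoform of visceral muscle. It stood at 2607 and 2492 CPM in CO, against 266 and 280 in DES (values are given in the order A, B throughout). The groups did not overlap, and Actg2 was 10.8-fold lower in DES (log2 fold change -3.43, SE 0.20, edgeR adjusted p = 0.0156). Acta2 (chromosome 19, 34241090 to 34255590), the α smooth muscle actin that is also strong in vascular muscle and myofibroblasts, stood at 4314 and 4323 CPM in CO and at 1250 and 1441 in DES. Its log2 fold change was -1.89 (SE 0.21, edgeR adjusted p = 0.0219), a 3.70-fold lower level. The number of Actg2 UMIs per Acta2 UMI was 0.604 and 0.576 in the CO sections and 0.213 and 0.194 in the DES sections. This ratio was thus lower in both DES sections than in either CO section; it was not tested in the fit.

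The motor genes were also lower. Myh11 (chromosome 16, 14194535 to 14291372), the heavy chain of smooth muscle myosin, stood at 1855 and 1804 CPM in CO and at 355 and 447 in DES. Its log2 fold change was -2.39 (SE 0.23, edgeR adjusted p = 0.0212). Myl9 (chromosome 2, 156775420 to 156781658), the regulatory light chain, stood at 4477 and 4971 CPM in CO and at 1404 and 1574 in DES. Its log2 fold change was -1.87 (SE 0.21, edgeR adjusted p = 0.0219), and neither gene's groups overlapped.

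Among proteins that bind the actin filament, Cnn1 (chromosome 9, 22099216 to 22109630), calponin 1, stood at 2356 and 2215 CPM in CO and at 436 and 495 in DES, a log2 fold change of -2.50 (SE 0.21). Tpm2 (chromosome 4, 43514711 to 43523765), β-tropomyosin, stood at 2764 and 2747 CPM in CO and at 517 and 616 in DES, a log2 fold change of -2.49 (SE 0.21). Both were more than 5-fold lower, with edgeR adjusted p-values of 0.0200 for Cnn1 and 0.0206 for Tpm2. Tpm1 (chromosome 9, 67022590 to 67049406), α-tropomyosin, is transcribed in many cell types through alternative promoters and exons. It stood at 1488 and 1353 CPM in CO and at 452 and 462 in DES (log2 fold change -1.85, SE 0.19, edgeR adjusted p = 0.0212). Tagln (chromosome 9, 45929619 to 45936058), the actin-binding protein transgelin or SM22, stood at 1414 and 2001 CPM in CO and at 485 and 579 in DES (log2 fold change -1.88, SE 0.25, edgeR adjusted p = 0.0304).

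Des (chromosome 1, 75360329 to 75368579), the muscle intermediate filament protein, stood at 2212 and 3334 CPM in CO and at 769 and 794 in DES. Its log2 fold change was -2.03 (SE 0.26, edgeR adjusted p = 0.0279). Smtn (chromosome 11, 3517523 to 3540612), smoothelin, an actin-binding protein of contractile smooth muscle, was the only member that did not pass. It stood at 530 and 864 CPM in CO and at 308 and 317 in DES. These groups did not overlap either, but the log2 fold change of -1.36 (SE 0.27) gave an edgeR adjusted p of 0.0617.

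**Figure D1:**
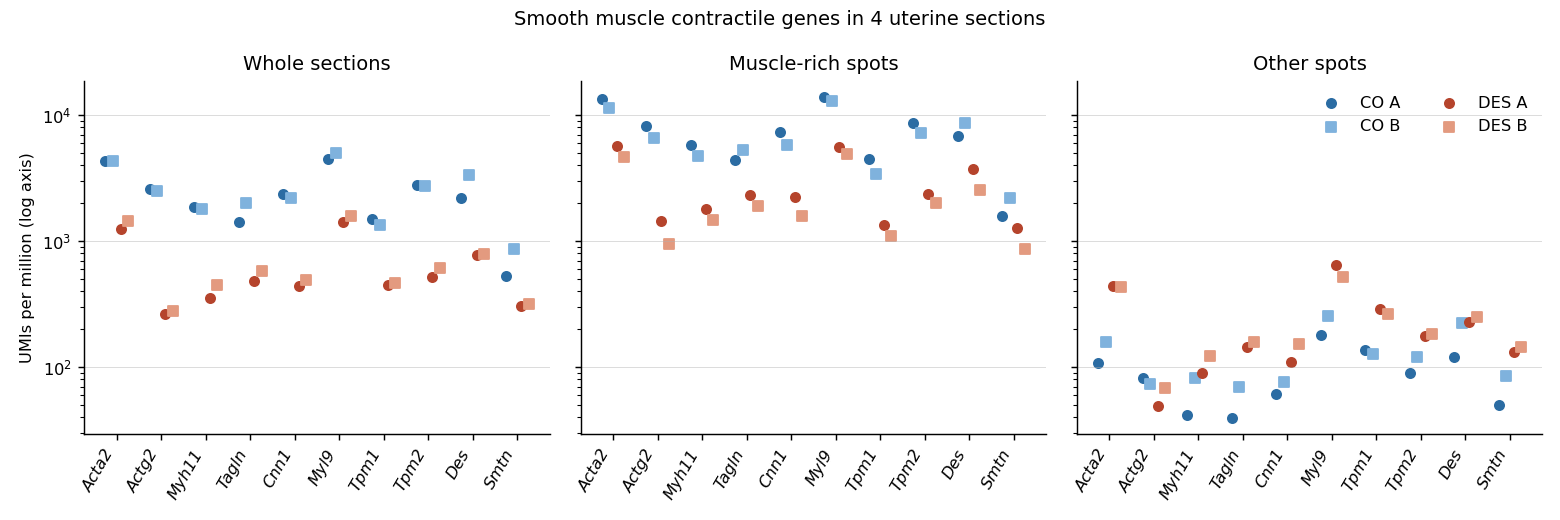
Level of each of the 10 genes in CPM (log axis) in whole sections, muscle-rich spots and other spots, with 1 point per section (blue, CO; red, DES). In whole sections and in muscle-rich spots both DES points lie below both CO points for every gene, Smtn included, and in other spots both DES points lie above both CO points for every gene but Actg2, whose DES points lie below. The share of all genes separated in this way was not computed.

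These calls needed both DES sections. When DES A or DES B was left out, the DES group was a single section assumed to vary like the CO sections, and 0 of the 10 passed; Actg2 then had edgeR adjusted p-values of 0.0583 and 0.0712. Over the 4 omissions the log2 fold change ranged from -3.52 to -3.37 for Actg2, from -2.28 to -1.73 for Des and from -1.65 to -0.99 for Smtn, the widest range of the 10. None of the genes tested passed as lower in either of these fits (0%). When CO A or CO B was left out, all 10 passed, including Smtn, but so did 10.4% and 8.19% of all genes tested.

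Markers of other cell types also stood at different levels in whole sections. Epithelial markers summed to 2155 and 1859 CPM in CO and 2427 and 2771 in DES over 6 of 6 genes detected, and immune markers to 435 and 834 against 2775 and 3368 over 6 of 6. Stromal markers summed to 2915 and 2931 CPM in CO and 1359 and 968 in DES over 6 of 6. By edgeR, 1 epithelial marker (Cldn4) and 1 immune marker (Cd79a) passed as higher, and 2 stromal markers (Dcn and Lum) as lower. None of 5 endothelial markers passed. The 8 pericyte and vascular smooth muscle markers summed to 292 and 404 CPM in CO and 213 and 185 in DES. Of these, 4 passed as lower, Kcnj8, Higd1b, Rgs5 and Cspg4, and 1 as higher, Notch3 (Cspg4 and Notch3 are named after their values were seen). Mesothelial markers summed to 5.84 and 6.07 CPM in CO and 24.7 and 33.6 in DES. Upk3b, at 2.64 and 2.08 CPM in CO and 18.8 and 23.1 in DES, passed as higher and made up most of the DES sum. The part of other cell types in the differences of the muscle genes was not tested.

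To compare the genes where muscle RNA lies, spots were divided by the clusters that the authors deposited, 10 per section, which were formed on the same counts. A cluster was called muscle-rich if a panel of 5 other muscle genes (Lmod1, Mylk, Synpo2, Pgm5 and Cald1) averaged above its level in the whole section. The panel itself was lower in DES, at 553 and 576 CPM against 1563 and 1640 in CO, so this limit was lower in the DES sections. Muscle-rich spots made up 45.4% and 47.8% of the CO sections and 42.8% and 46.4% of the DES sections. They held 97.4% and 96.9% of the 10 genes' UMIs in CO, but 68.8% and 75.1% in DES. Within them the 10 genes made up 7.46% and 6.80% of UMIs in CO and 2.77% and 2.20% in DES.

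In muscle-rich spots 9 of the 10 were again lower in DES and none was higher, against 3.40% lower and 4.80% higher among all 12241 genes tested. Actg2 stood at 8138 and 6573 CPM in CO and at 1450 and 953 in DES (log2 fold change -2.89, SE 0.26, edgeR adjusted p = 0.00248). Tpm2 stood at 8623 and 7177 CPM in CO and at 2376 and 1993 in DES (log2 fold change -2.13, SE 0.21, edgeR adjusted p = 0.00318). These were the strongest and the next strongest of the 10, and in both the groups lay far apart. Cnn1 followed at 7382 and 5822 CPM in CO and 2221 and 1583 in DES (log2 fold change -2.07, SE 0.24, edgeR adjusted p = 0.00535). The others that passed lay between -1.97 for Tpm1 and -1.46 for Tagln, with edgeR adjusted p-values from 0.00439 to 0.0130. Smtn, at 1583 and 2179 CPM in CO and 1276 and 870 in DES, did not pass (log2 fold change -1.08, SE 0.26, edgeR adjusted p just above 0.05). In some alternative settings that kept all sections Smtn did pass. Without DES A 4 of the 10 passed as lower, against 0.193% of all genes, and without DES B only Actg2 did, against 0.0623%.

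The make-up of the 10 genes' UMIs also differed. Actg2 took 10.9% and 9.67% of them in the muscle-rich spots of CO and 5.23% and 4.34% in DES. Smtn took 2.12% and 3.20% in CO and 4.60% and 3.96% in DES. Acta2 took 18.1% and 16.7% in CO and 20.5% and 21.1% in DES. For each of these shares the groups did not overlap, and the shares were not tested.

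**Figure D2:**
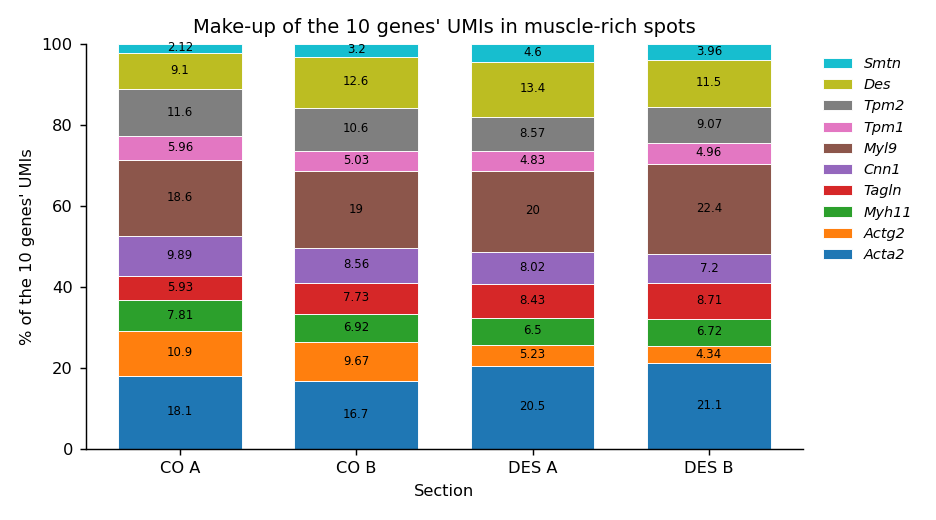
Share of each gene in the UMIs of all 10 genes in the muscle-rich spots of each section (stacked bars, percent, each section adding to 100). The Actg2 share, second from the bottom, is 10.9% and 9.67% in CO and 5.23% and 4.34% in DES.

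How far the levels in muscle differed between the groups depended on how strictly muscle was defined. The muscle-rich clusters held 1.60 to 9.14% of their UMIs in the 10 genes in CO (9 clusters) and 0.612 to 5.49% in DES (10 clusters). With 1 panel level for all sections (1083 CPM, the mean of the 4 whole sections; chosen after the levels were seen), 3 of the 4 muscle-rich clusters of DES A and 5 of the 6 of DES B remained, and all of those in CO. The 10 genes then made up 3.99% and 3.26% of UMIs in DES, and 5 of the 10 passed as lower, against 0.273% of all 11738 genes tested. These were Actg2 (log2 fold change -2.22), Tpm2 (-1.47), Cnn1 (-1.43), Tpm1 (-1.42) and Myh11 (-1.30), with edgeR adjusted p-values from 0.0139 to 0.0475. Acta2, Tagln, Myl9 and Des, which had passed with the limit set in each section, did not, with log2 fold changes from -1.02 to -0.80 and edgeR adjusted p-values from 0.0597 to 0.129.

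In the 1 cluster per section with the highest panel level, an alternative also chosen after the levels were seen, the 10 genes made up 8.19% and 9.14% in CO and 5.49% and 5.20% in DES. There 3 of the 10 passed as lower, against 0.271% of all 8866 genes tested. Actg2 stood at 8175 and 10473 CPM in CO against 3125 and 2545 in DES (log2 fold change -1.89, SE 0.24, edgeR adjusted p = 0.00871). Tpm1 (log2 fold change -1.20) and Tpm2 (-1.17) passed by a narrow margin, with edgeR adjusted p-values of 0.0475 and 0.0468. Acta2, at 15815 and 15398 CPM in CO and 11242 and 11036 in DES, had a log2 fold change of -0.65 (SE 0.20, edgeR adjusted p = 0.236). Des and Smtn overlapped between the groups there: Des stood at 6435 and 10930 CPM in CO and 7045 and 5755 in DES. Actg2 was called lower by edgeR in the whole sections, in the muscle-rich spots and in the highest-panel clusters, as were Tpm1 and Tpm2.

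In DES, the muscle-rich spots also held more epithelial RNA. Epithelial markers summed to 318 and 389 CPM in CO and to 1116 and 1320 in DES, with 6 of 6 genes detected in every section, and 5 of the 6 passed as higher. Stromal markers summed to 4577 and 4586 CPM in CO and to 2476 and 2353 in DES, and 4 of 6 passed as lower. Immune markers summed to 634 and 1185 CPM in CO and to 1851 and 3528 in DES, and 1 of 6 (Cd79a) passed as higher, as did Adipoq, the 1 adipocyte marker tested. The spots were shallower in DES, with medians of 1752 and 3078 UMIs against 5335 and 4331.5 in CO. The part of these differences in the muscle genes' levels was not tested. With spots under 1000 UMIs left out, 9 of the 10 genes passed as lower, against 3.18% of all genes tested.

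Outside the muscle-rich spots the picture differed. The 10 genes made up 0.0907% and 0.127% of UMIs in CO and 0.230% and 0.229% in DES. Acta2 stood at 108 and 158 CPM in CO and at 439 and 434 in DES. It passed as higher, by 2.80-fold (log2 fold change 1.48, SE 0.23, edgeR adjusted p = 0.0473), as 1 of the 10, against 1.76% higher among all 13356 genes tested. None passed as lower, against 1.33%; the lowest unadjusted p of a member with a negative fold change was 0.0541 by edgeR, and 0 passed as lower by DESeq2. Actg2 alone had a negative fold change there, at 81.9 and 72.9 CPM in CO and 48.7 and 68.1 in DES (log2 fold change -0.64, SE 0.26, edgeR adjusted p = 0.227). Myl9, at 180 and 254 CPM in CO and 647 and 517 in DES, and Tagln, at 39.4 and 69.7 against 145 and 158, had log2 fold changes of 1.19 and 1.25 and did not pass by edgeR (adjusted p = 0.0730 and 0.0923). They passed by DESeq2 (adjusted p = 6.90e-04 and 0.00628), as did Tpm1 (adjusted p = 0.0132), and 5.77% of all genes passed as higher by that tool. With 1 panel level for all sections, Acta2 and Myl9 passed as higher by edgeR (adjusted p = 0.0425 and 0.0457), against 1.99% of all genes, and none of the 10 as lower, against 1.62%. The Acta2 call was lost when either DES section was left out (edgeR adjusted p = 0.230 and 0.256).

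The 8 pericyte markers summed to 255 and 357 CPM in CO and 174 and 130 in DES. Of the 8, 3 passed as lower (Rgs5, Higd1b and Kcnj8) and none as higher. Notch3, named after its values were seen, had a positive log2 fold change of 1.52 (edgeR adjusted p = 0.0521). Endothelial markers summed to 62.9 and 105 CPM in CO and 31.7 and 24.4 in DES, and 1 of 5 (Emcn) passed as lower. Stromal markers summed to 2156 and 1950 CPM in CO and 1155 and 532 in DES, and 0 of 6 passed. Mesothelial markers, at 0.932 and 1.59 CPM in CO with 2 of 4 genes at 0, summed to 22.2 and 31.7 in DES with none at 0. Upk3b, with group means of 0.566 CPM in CO and 21.7 in DES, passed as higher and made up most of the DES sum. Immune markers summed to 344 and 626 CPM in CO and 2945 and 3317 in DES, but 0 of 6 passed by edgeR, with Cd74 at an adjusted p of 0.0681 and Lyz2 at 0.101. Which cells carried these markers, and whether they contributed to the Acta2 level, was not tested. In DES A, 1402 of the 3381 Acta2 UMIs of other spots came from cluster 4, which the paper treats as stroma. The cluster it treats as stroma in DES B was not among the other spots.

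A fit over both regions of each section, added after the levels were seen, gave the difference between the DES effect in muscle-rich spots and that in other spots. It was below 0 for all 10 genes, from -3.09 for Acta2 (SE 0.27) to -1.95 for Des (SE 0.28). The genes were chosen on their levels across these clusters, and the regions were set by a panel with a like profile, so these values are a description. Among all 13837 genes tested in this fit, 3.79% passed below 0, and nothing is read from the 10 genes against that share. The fit used 8 sums with 2 residual degrees of freedom.

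**Figure D3:**
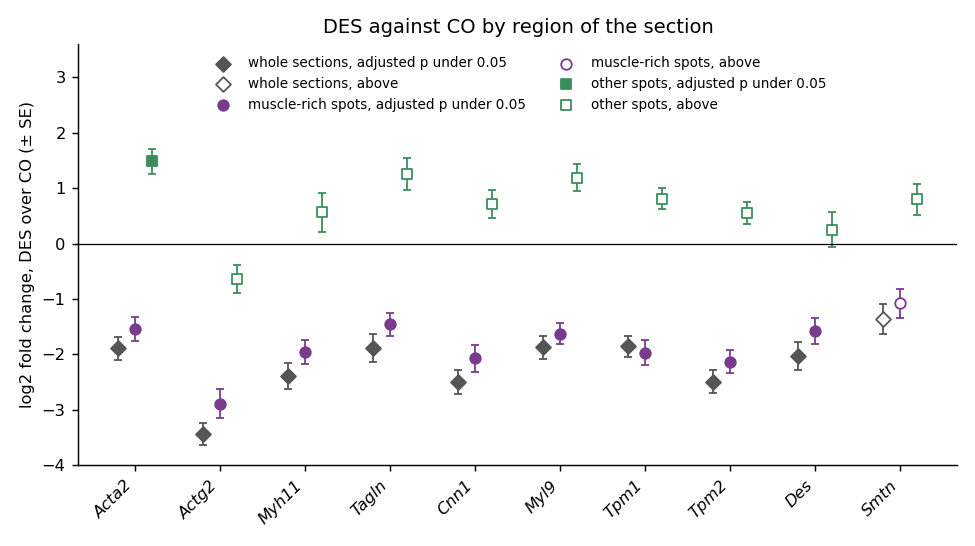
Log2 fold change of DES over CO with its standard error for each gene in whole sections (grey diamonds), muscle-rich spots (purple circles) and other spots (green squares). Filled symbols passed an adjusted p of 0.05 by edgeR and open symbols did not. Values lie from -3.43 to -1.08 in whole sections and muscle-rich spots, and from -0.64 to 1.48 in other spots.

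Across the 40 clusters of the 4 sections the genes moved together, as the list was chosen to do. The correlation of each gene with the mean of the others, after centring within sections, ranged from 0.945 for Tpm1 to 0.994 for Actg2 on log2(CPM + 1). The clusters of a section share a slide, a library and the counts from which they were formed, so this is a description. Within sections the lowest correlation was 0.853 for Des, against 0.994 for Actg2. Tpm1, Des and Smtn followed the rest least closely. The lowest and highest clusters of Actg2 differed 196-fold in CO A, 356-fold in CO B and 85.4-fold in DES B. For Tpm1 the spans in the same 3 sections were 46.5-fold, 52.0-fold and 10.9-fold, and for Smtn 47.1-fold, 55.4-fold and 22.8-fold. In DES A, Actg2, Myh11, Tagln, Cnn1, Tpm2 and Smtn had no UMI in cluster 10, which held only 2 spots and 14711 UMIs. This cluster had the same weight in the correlations as every other.

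**Figure D4:**
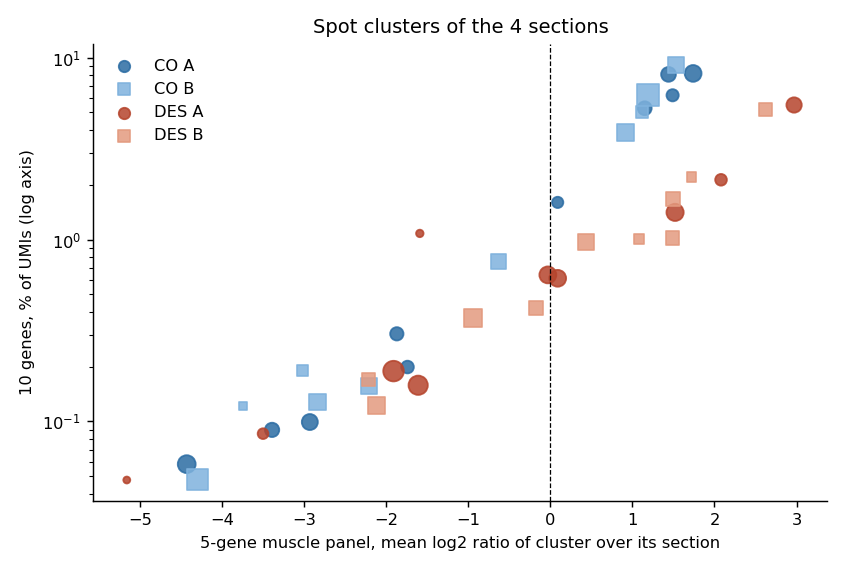
Share of UMIs in the 10 genes (percent, log axis) against the mean log2 ratio of the 5-gene muscle panel in 40 spot clusters, with point area growing with the number of spots. Clusters right of the dashed line are muscle-rich; those of CO lie between 1.60% and 9.14% and those of DES between 0.612% and 5.49%.

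The 10 other genes with the most similar cluster profile were Pcp4, Hspb7, Fbxl22, Flna, Ptms, Mylk, Ppp1r14a, Csrp1, Jph2 and Tspan13, with correlations from 0.988 to 0.968 over 40 clusters. Pcp4, the closest, encodes a small calmodulin-binding protein. Mylk encodes myosin light chain kinase, Ppp1r14a an inhibitor of myosin phosphatase, and Flna filamin A, which crosslinks actin. With a pseudocount of 10 in place of 1, 8 of these 10 remained among the closest.

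The wider contractile apparatus was read from lists of related genes, also chosen with earlier results of the data known. The counts for these lists are thus a description and not independent evidence. They stand against 2.63% lower and 2.67% higher of all genes in whole sections and 3.40% and 4.80% in muscle-rich spots. All 5 panel genes passed as lower in whole sections. Synpo2, which encodes an actin-binding Z-disc protein, led with a log2 fold change of -2.32 (SE 0.21, edgeR adjusted p = 0.0206). Cald1, which encodes caldesmon, followed at -1.90 (SE 0.17). The number of member UMIs per panel UMI was 16.1 and 16.9 in the muscle-rich spots of CO and 11.5 and 12.4 in those of DES. In other spots it was lower in CO, at 5.50 and 5.75, than in DES, at 10.8 and 11.5.

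Of 20 genes of dense plaques and Z-disc-like structures, 11 passed as lower in whole sections and none as higher, with a median log2 fold change of -1.24 against -0.01 over all genes. Pdlim3, which encodes an α-actinin-binding LIM protein, stood at 301 and 300 CPM in CO and at 61.3 and 74.2 in DES (log2 fold change -2.35, SE 0.20, edgeR adjusted p = 0.0202). In muscle-rich spots 12 of the 20 passed as lower, led by Itga1, an integrin subunit (log2 fold change -1.95). Synpo2 and Pgm5, among both the 11 and the 12, are panel genes, whose levels defined the muscle-rich spots. Genes of myosin and its regulation were mixed. In whole sections 4 of 13 passed as lower, among them Ppp1r14a (-1.69), Mylk (-1.57) and Ppp1r12b (-1.56), a myosin phosphatase subunit. In muscle-rich spots 4 passed as lower, among them Myl6 (-1.44) and Mylk (-1.23), which is also a panel gene. There 2 passed as higher, with Myl12b, a regulatory light chain of nonmuscle myosin, at 1.60. Myl12b had group means of 83.8 CPM in CO and 305 in DES there. In other spots they were 354 and 548, and it did not pass.

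Of 9 tested thin-filament genes outside the 10, 2 passed as lower in whole sections, Cald1 and Lmod1 (leiomodin 1, which nucleates actin filaments). Both are also panel genes. Of 3 other intermediate filament genes, Synm, which encodes the desmin partner synemin, passed as lower (-2.09). Of 10 tested transcription regulators of smooth muscle, none passed in whole sections, a count near the share over all genes. Srf stood at 55.6 and 74.1 CPM in CO and 47.1 and 48.8 in DES (log2 fold change -0.64, SE 0.20, edgeR adjusted p = 0.136). In muscle-rich spots 1 of the 10 passed as higher and 1 as lower, counts near the shares over all genes. Klf4 passed as higher (1.84, edgeR adjusted p = 0.00733). It encodes a zinc-finger factor known to oppose the contractile program in vascular muscle and is also expressed in epithelium. Klf4 had group means of 43.0 CPM in CO and 186 in DES there. In other spots they were 326 and 448, and it did not pass. The part of epithelial RNA in the Klf4 level was not tested. Fhl2, a LIM-domain cofactor, passed as lower (-1.18).

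Among 6 tested markers of striated muscle, 4 passed as lower in whole sections and none as higher. Acta1, the skeletal α-actin, stood at 233 and 412 CPM in CO and at 8.45 and 14.1 in DES (log2 fold change -5.03, SE 0.45, edgeR adjusted p = 0.0206). Ckm, muscle creatine kinase, stood at 26.3 and 53.8 CPM in CO and at 1.21 and 0.911 in DES. Both differences were larger than that of Actg2. The whole list of 9 genes summed to 910 and 1329 CPM in the muscle-rich spots of CO and 16.8 and 26.3 in the other spots.

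In the single-cell data each condition was 1 library, so no test between CO and DES was possible and intervals cover counting error only. The CO library held 85 cells annotated as Myocytes, 0.262% of its cells, which gave 17.6% of its UMIs for the 10 genes. There the 10 genes made up 5.84% of UMIs (median 6.23% per cell, from 1.21 to 12.1%). All 10 had a UMI in 82 of the 85 cells and the other 3 cells had 9. The list was chosen on such levels, so these values describe the annotated cells and do not test the annotation. The 5 panel genes, all detected there, summed to 6967 CPM in Myocytes and 1858 in Pericytes, whereas the 8 pericyte markers summed to 177 in Myocytes, with 1 at 0, and 8777 in Pericytes. Tagln stood at 12979 CPM (exact Poisson 95% interval 12766 to 13194) and Acta2 at 11786 (11584 to 11991) in these cells, and Actg2 at 5811 (5670 to 5956). Smtn had the fewest UMIs, at 684 CPM (636 to 735).

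By the pooled level of the 10 genes, the annotated CO cell types fell in the following order, which leaves out the 20134 cells with no cell type (779 CPM, 775 to 784). Myocytes at 58427 CPM (57975 to 58881) were followed by the 75 Pericytes at 5466 (5225 to 5716), the 22 Stmn1-hi cells at 2114 (1978 to 2257), the 6866 Mesothelial cells at 1629 (1621 to 1638) and the 1326 Stromal cells at 1187 (1167 to 1206). Ctla2a cells at 484 (459 to 511) and Myeloid cells at 475 (423 to 533) did not differ beyond their intervals. Endothelial cells at 255 (236 to 275), Epithelial cells at 174 (171 to 177) and Lymphocytes at 152 (136 to 169) were lowest. These intervals cover counting error and not the spread between cells. The median cell held 0.250% of its UMIs in the 10 genes among Pericytes (from 0.0497 to 3.64%), below the pooled 0.547%, and the 2 Pericytes with Actg2 held all 10 genes. By the median cell Myeloid cells, at 0.0123%, came below Ctla2a cells at 0.0423%, Endothelial cells at 0.0225% and Epithelial cells at 0.0139%, so the lower part of the order depended on the measure.

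**Figure D5:**
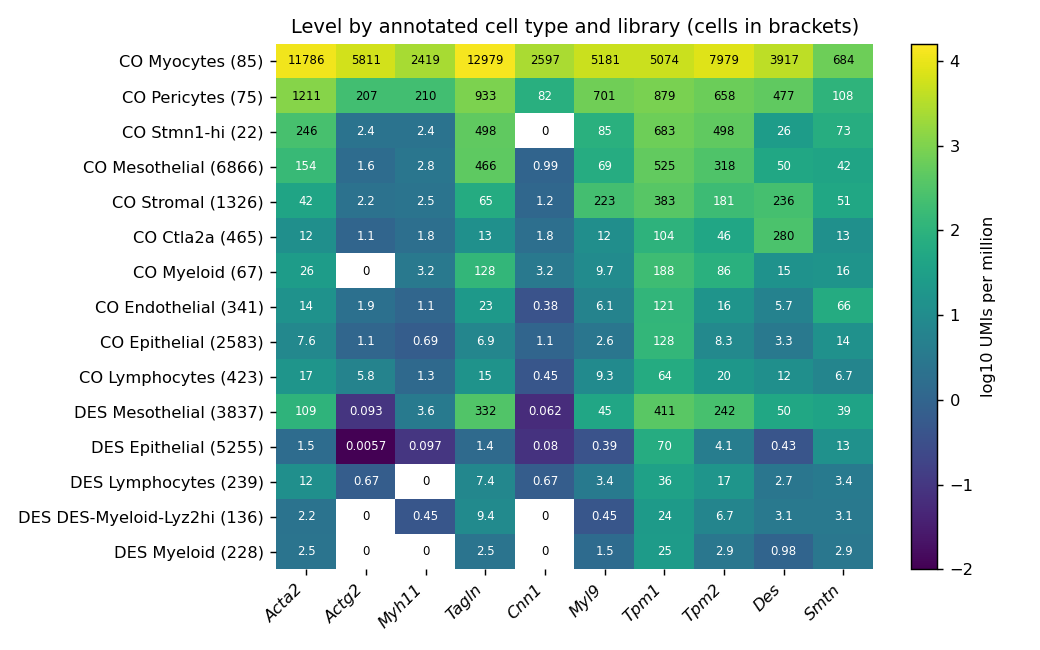
Level of each gene in CPM by annotated cell type and library, for types with at least 20 cells (number of cells in brackets); colour gives log10 of the printed value, and white cells hold no UMI. CO Myocytes are highest for every gene, Actg2 stands at 5.78 CPM or lower in the other annotated CO types except Pericytes, and Tpm1 at 24.2 CPM or higher in every type shown.

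The 10 genes were not equally restricted to muscle. Myocytes held 67.8% of the CO library's UMIs for Actg2, 64.8% for Cnn1 and 59.0% for Myh11. They held 30.9% for Acta2, 25.1% for Myl9 and 22.0% for Des. They held 16.7% for Tagln, 14.4% for Tpm2, 7.24% for Smtn and 5.24% for Tpm1. Actg2 was thus the member most, and Tpm1 the member least, confined to Myocytes in this library. Cells with no cell type, 62.2% of the library's cells, held from 28.6% (Actg2) to 40.3% (Smtn) of a member's UMIs. UMIs outside Myocytes were therefore not all in other annotated types. The level in Myocytes was 5331-fold that in Epithelial cells for Actg2, 3531-fold for Myh11, 49.9-fold for Smtn and 39.6-fold for Tpm1. The Epithelial levels of Actg2 and Myh11 came from 86 and 54 UMIs over 2583 cells. The part of free RNA in them was not tested, so these folds are rough.

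Mesothelial cells, the lining of the outer uterine surface, shared part of the set. In CO they stood at 525 CPM for Tpm1, 466 for Tagln, 318 for Tpm2 and 154 for Acta2, but at 1.56 for Actg2 and 0.987 for Cnn1. After thinning to 3000 UMIs per cell (6718 of the 6866 cells), 56.5% had a Tagln UMI and 0.595% an Actg2 UMI. Epithelial cells (2562 of 2583, median 23458 UMIs before thinning) had 2.07% and 0.546%, so the Actg2 share in Mesothelial cells (median 10436 UMIs) was close to that in a cell type that should lack the gene. Without thinning, 13.6% of Epithelial cells had a Tagln UMI and 2.83% an Actg2 UMI.

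Stromal cells held Tpm1 at 383 CPM, Des at 236, Myl9 at 223 and Tpm2 at 181. Des was the leading member in Ctla2a cells, at 280 CPM (49.2% of 439 cells with a UMI after thinning), against 50.3 in Mesothelial cells. In Pericytes, contractile cells of small vessels, Acta2 stood at 1211 CPM, Tagln at 933, Tpm1 at 879 and Myl9 at 701. Actg2 UMIs came from 2 of the 75 Pericytes, which also held UMIs of Cnn1 and Myh11. Without these 2 cells, left out after they were seen, Acta2 stood at 760 CPM, Tagln at 418, Tpm1 at 781 and Myl9 at 609, and the 10 genes summed to 3489 CPM (3289 to 3698) in place of 5466. Rgs5, a pericyte marker, stood at 5143 CPM in Pericytes and 100 in Myocytes.

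The DES library held no cell annotated as Myocyte or Pericyte. Over all its cells Actg2 had 11 UMIs of 288919190 (0.0381 CPM, 0.0190 to 0.0681), against 9397 of 353460067 in CO (26.6 CPM, 26.1 to 27.1). Cnn1 had 22 UMIs in DES and 4397 in CO, and Myh11 284 and 4498. Cells with at least 1 UMI of each of Actg2, Cnn1 and Myh11 numbered 138 of 32387 in CO and 1 of 16312 in DES. Of the 138, 84 were Myocytes and 49 had no cell type. In the DES sections, by contrast, Actg2 stood at 266 and 280 CPM. Actg2 RNA was thus readily measured in DES tissue and almost missing from the dissociated DES cells. In CO too Actg2 was far lower in the cell library (26.6 CPM) than in the sections (2607 and 2492 CPM). Dissociation used trypsin, and whether muscle cells were lost at that step was not tested.

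In cell types present in both libraries, levels for Mesothelial cells were 466 CPM in CO and 332 in DES for Tagln, 525 and 411 for Tpm1, 318 and 242 for Tpm2, and 154 and 109 for Acta2. Des stood at 50.3 in both. Myh11 was at 2.76 CPM (2.41 to 3.14) in CO and 3.64 (3.19 to 4.13) in DES, the opposite order. Actg2 stood at 1.56 in CO and 0.0929 in DES, from 130 and 6 UMIs. Epithelial cells stood at 1.09 CPM for Actg2 in CO and 0.00568 in DES, from 86 and 1 UMIs. After thinning, 0.546% of CO Epithelial cells and 0 of 5201 DES Epithelial cells (exact 95% upper bound 0.0709%) had an Actg2 UMI (2.83% and 0.0190% without thinning). The CO library held Myocytes and the DES library held none, and the part of free RNA in these low Actg2 values was not tested. Tpm1, the member with the most UMIs in epithelium, was at 128 CPM (CO) and 70.2 CPM (DES) in Epithelial cells, and Smtn at 13.7 and 13.4. With 1 library per condition, differences between conditions and between libraries cannot be told apart.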

How the data were processed

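Space Ranger 1.2.2 (sections) and Cell Ranger 3.0.1 (cells), with build mm10, are named in the submitters' processing notes. The authors deposited raw UMI counts per gene and spot or cell, spot clusters and cell types; doublets had been removed by the authors according to their methods. The members and all gene lists were chosen with earlier results of these data known. Counts were summed per section or region (the section, 1 mouse, was the replicate) and tested with edgeR 4.0.16 (filterByExpr, TMM, glmQLFit and glmQLFTest, Benjamini-Hochberg, threshold 0.05), with DESeq2 1.42.0 as an alternative. The test was also run on counts simulated with the same spread for every gene. That run does not cover the differing spread of real genes, and nothing is read from it. Section letters were not used to pair samples in the main fit. Cells were summed by annotated type, with exact Poisson 95% intervals; shares of cells used 3000 UMIs per cell. In the metadata, 350 cells had no counts and were left out. All 10 members are named, as are up to 3 genes per list (the largest changes among those that passed, otherwise the highest levels) and the 10 genes most alike over clusters (mean of at least 20 CPM). Gene positions are from GENCODE M21 (GRCm38), promoters from RefSeq.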

Additional observations from a re-analysis of the deposited data

Results flagged for a closer look

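The DES effect in muscle-rich spots lay below that in other spots for all 10 genes, with the difference estimated in 1 edgeR fit over both regions of each section. The genes were chosen on their levels across the clusters from which the regions were built, so the values are a description and not independent evidence. On the log2 scale the difference was -3.09 for Acta2, -2.88 for Myl9, -2.83 for Tpm1, -2.81 for Cnn1 and -2.80 for Tagln. It was -2.73 for Tpm2, -2.61 for Myh11, -2.30 for Actg2, -1.98 for Smtn and -1.95 for Des. In muscle-rich spots the fold changes were below 0 for all 10, and in other spots they were above 0 for all but Actg2. Actg2 was the 1 gene whose fold change had the same sign in both regions, but in other spots only Acta2 passed in the main edgeR fit. The Actg2 value there (-0.64) did not pass, and that of Des (0.25) turned to -0.09 without CO A. The regions were set by the 5-gene panel, which itself differed between the groups, and the part of that difference in these values was not tested. The cluster that the paper treats as stroma fell in the muscle-rich spots in DES B only, and the part of this was not tested either.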

How the results depend on the processing

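With 2 sections per group, calls depended on which sections entered. Leaving out each section in turn gave 3 to 2819 genes called in whole sections, 126 to 2587 in muscle-rich spots and 3 to 1392 in other spots. Members called lower then ranged from 0 to 10 in whole sections and from 1 to 10 in muscle-rich spots, and members called higher in other spots from 0 to 4. The counts were lowest without DES A or DES B; in muscle-rich spots 4 members passed without DES A and 1, Actg2, without DES B. The log2 fold change of Des in other spots (0.25) ranged from -0.09 without CO A to 0.73 without CO B. In muscle-rich spots, clusters with a panel ratio above 0.5 gave 117 of 11690 genes tested, 30.8% of them lower, and 5 members lower. The highest-panel cluster alone, chosen after seeing the data, gave 74 of 8866 genes, 32.4% of them lower, and 3 members lower. With 1 panel level for all sections, also chosen after seeing the data, 101 of 11738 genes were called in muscle-rich spots. Of these 31.7% were lower, and 5 members were called lower. In other spots 488 of 13525 genes were called, 44.9% of them lower, and 2 members were called higher. The muscle-rich spots of this setting were those of the ratio above 0.5 except in CO A (651 spots against 580). These settings are thus not separate checks.

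DESeq2 called 1791 genes in whole sections (747 by edgeR) and 1473 in other spots (412 by edgeR). In the latter DESeq2 called 4 members higher, against 5.77% of all genes. In muscle-rich spots it called 963 genes (1004 by edgeR). Scaling by library totals moved the median of all genes to 0.20, 0.26 and 0.22 (log2) in whole sections, muscle-rich and other spots, and the share of calls that were lower to 33.5%, 21.1% and 29.9% from 49.7%, 41.4% and 43.0%; it left 9, 9 and 1 members called. Over 6 alternatives that kept all sections, 59 of 60 member values in whole sections kept their direction and call. The exception was Smtn, which passed by DESeq2. In muscle-rich spots 81 of 100 values over 10 such alternatives did so. There 14 lost their call and 5, all of Smtn, gained one.

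Sections with the same letter did not deviate together (r = -0.0254, 0.0402 and -0.0536), so the letters are not taken as pairs. With the letter as a replicate block, 527 of 14098 genes tested were called in whole sections and 1492 of 12241 in muscle-rich spots. Of these calls 43.5% and 42.2% were lower, and 9 and 10 members were called lower. In other spots the block called 794 of 13356 genes, 42.7% of them lower, and 2 members higher, Acta2 and Tagln.

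The summed level in CO Myocytes (58427 CPM) was 61654 as a mean over cells and 62052 with totals that excluded the members. That in Pericytes (5466 CPM) was 3891 as a mean over cells, 5766 in cells with at least 3000 UMIs and, chosen after seeing the data, 3489 without 2 cells that held Actg2, Cnn1 and Myh11 together. Smtn was seen in 83.3% of Myocytes at 3000 UMIs, 91.6% at 5000 and 97.6% without thinning.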
